A study of Mus musculus with 9 samples.

Results

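The 48 genes described here were expressed in 66cl4 mouse mammary carcinoma cells that carried a scramble hairpin and were at or near 0 in both groups of cells that carried a hairpin against Eya3. They were chosen by their measured levels: a mean of at least 2 CPM (the count divided by the library total and scaled to a common size) in the scramble libraries and a mean under 0.1 CPM in each of the other groups. Of 52208 genes in the table, 11118 reached 2 CPM in the scramble cells, and 60 of these met both limits. Removing 8 predicted gene names, Procr, Nkd1, Psmb8 and Sema6a left the 48. Their low levels in the Eya3-hairpin cells are therefore a description of the choice and were given no test. The word silenced stands here for those limits on messenger RNA and for nothing else.

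The 9 libraries of messenger RNA came from 3 groups of 3 biological replicates of 66cl4, a line labelled as triple negative breast cancer. Scramble cells carried the scramble hairpin and an empty vector. Knockdown cells carried the Eya3 hairpin with the same vector, and in add-back cells IKK2-SE, a constitutively active kinase of the NF-kB pathway, took the vector's place. All groups were kept in puromycin and selected by mCherry. Nothing in the labels ties the replicates to separate transductions or clones, and the p-values below measure only how far these libraries spread.

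Eya3 encodes a transcriptional coactivator and phosphatase that acts with the DNA-binding proteins of the Sine oculis homeobox family. A gene can lose its messenger RNA when its promoter is no longer activated, or when it is covered by repressive marks such as DNA methylation, histone H3 lysine 27 methylation set by Polycomb proteins, or histone H3 lysine 9 methylation. Promoters rich in CpG dinucleotides are usually free of DNA methylation in active genes, and germline genes such as the Magea family are often held silent by methylation outside the gonads.

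Library totals ran from 63601403 to 81534534 counts, and mitochondrial genes took 0.939% to 1.43% of them. Eya3 itself stood at 63.99, 64.93 and 61.99 CPM in the scramble libraries, 24.89, 24.83 and 23.88 CPM in the knockdown libraries and 29.08, 25.84 and 24.88 CPM in the add-back libraries. Its log2 fold change from scramble was -1.33 ± 0.06 in knockdown cells (edgeR adjusted p = 5.97e-12). In add-back cells it was -1.24 ± 0.06 (edgeR adjusted p = 1.52e-11). The target of the hairpin was reduced and still present in both groups. The near absence of the 48 genes there was fixed by their choice and is not set against it. Epcam and Cdh1, which define epithelial cells, were under 0.1 CPM in every group. Krt8 gave most of the summed epithelial marker level and rose from 638 CPM in scramble to 1306 CPM in knockdown cells. Grhl2, an epithelial transcription factor, fell from 36.3 CPM in scramble to 0.480 CPM in knockdown cells and stood at 0.761 CPM in add-back cells. Of the mesenchymal list, Vim, Twist1 and Fn1 were expressed throughout. In knockdown cells Snai2 fell from 32.6 to 11.7 CPM and Snai1 from 0.386 to 0.0346 CPM. Zeb1 rose from 31.0 to 46.8 CPM, S100a4 from 18.4 to 31.7 CPM and Fn1 from 1125 to 1860 CPM. Of the 9 genes of this list, 4 were called higher (44.4%) and 3 lower (33.3%), beside 27.7% and 29.9% of all tested genes.

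To show what lay at the start of these genes, promoter windows were read from RefSeq (GRCm38.p6) for genes that had no count in any Eya3-hairpin library and that had a window. Each sequence covers 250 bases before to 50 bases after an annotated start, 5′ to 3′ on the gene's strand, with CpG dinucleotides in capitals. The Ckb window (chr12:111672289-111672588, minus strand) held 22 CpG. The Rai14 windows were at chr15:10714049-10714348 with 25 CpG and at chr15:10713491-10713790 with 5, both on the minus strand. The windows of Tmtc2 (chr10:105574430-105574729, minus strand), Tysnd1 (chr10:61695264-61695563, plus strand) and Xlr4b (chrX:73214083-73214382, plus strand) held 10, 18 and 8 CpG. A second Tysnd1 window (chr10:61695336-61695635, 19 CpG) overlaps the one shown and is not printed.
Ckb: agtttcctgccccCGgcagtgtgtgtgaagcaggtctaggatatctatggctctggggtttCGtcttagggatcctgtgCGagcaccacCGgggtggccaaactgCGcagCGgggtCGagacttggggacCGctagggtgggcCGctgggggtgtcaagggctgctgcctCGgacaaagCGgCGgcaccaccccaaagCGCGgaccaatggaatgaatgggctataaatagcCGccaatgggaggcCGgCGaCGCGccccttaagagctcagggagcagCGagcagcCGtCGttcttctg
Rai14, upstream start: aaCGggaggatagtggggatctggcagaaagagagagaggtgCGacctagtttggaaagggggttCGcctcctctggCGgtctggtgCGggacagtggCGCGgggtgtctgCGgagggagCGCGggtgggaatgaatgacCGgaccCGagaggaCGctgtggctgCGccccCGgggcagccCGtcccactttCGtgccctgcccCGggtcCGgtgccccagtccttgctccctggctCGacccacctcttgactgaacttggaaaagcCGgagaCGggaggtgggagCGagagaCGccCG
Rai14, downstream start: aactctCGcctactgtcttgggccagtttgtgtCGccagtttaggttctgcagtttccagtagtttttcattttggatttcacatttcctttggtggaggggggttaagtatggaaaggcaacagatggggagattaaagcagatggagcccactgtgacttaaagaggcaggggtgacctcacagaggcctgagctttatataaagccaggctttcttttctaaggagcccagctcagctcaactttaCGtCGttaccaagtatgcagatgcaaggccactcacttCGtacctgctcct
Tmtc2: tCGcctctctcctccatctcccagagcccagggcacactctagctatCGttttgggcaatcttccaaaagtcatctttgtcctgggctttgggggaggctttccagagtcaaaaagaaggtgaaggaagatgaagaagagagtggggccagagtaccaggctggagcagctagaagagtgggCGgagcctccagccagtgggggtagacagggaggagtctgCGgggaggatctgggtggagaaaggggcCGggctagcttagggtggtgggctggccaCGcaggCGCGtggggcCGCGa
Tysnd1: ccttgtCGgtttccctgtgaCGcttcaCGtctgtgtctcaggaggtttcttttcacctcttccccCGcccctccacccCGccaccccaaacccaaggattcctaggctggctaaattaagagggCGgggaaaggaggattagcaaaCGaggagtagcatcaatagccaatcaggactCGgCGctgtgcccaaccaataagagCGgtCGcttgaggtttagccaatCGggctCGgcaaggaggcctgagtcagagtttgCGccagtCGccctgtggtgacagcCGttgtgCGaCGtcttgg
Xlr4b: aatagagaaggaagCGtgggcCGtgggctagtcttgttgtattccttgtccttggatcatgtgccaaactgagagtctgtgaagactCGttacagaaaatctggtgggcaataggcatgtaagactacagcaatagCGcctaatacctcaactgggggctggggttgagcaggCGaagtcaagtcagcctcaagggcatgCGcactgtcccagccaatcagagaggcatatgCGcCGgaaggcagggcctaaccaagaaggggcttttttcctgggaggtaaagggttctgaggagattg
Genes with no detected transcript in the hairpin cells therefore started in windows of very different CpG content, and the same gene, Rai14, had one window of each kind.

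Over all the genes that matched, 43 windows of 30 of the 48 genes were available. Their median ratio of observed to expected CpG was 0.638, beside 0.778 in 10632 windows of other protein-coding genes at 2 CPM or more in the scramble cells and 0.567 in 21263 windows of all protein-coding genes. A ratio of at least 0.6 was found in 55.8% of the windows of the silenced genes, in 73.3% of those of the other expressed genes and in 47.7% of all. A ratio under 0.4 was found in 30.2%, 14.5% and 39.4%. The silenced genes lay between expressed genes and all genes in CpG content, with windows at both ends of the range. The sets were not matched on level. The silenced genes had a median of 3.85 CPM in scramble, beside 37.0 CPM over genes at 2 CPM or more. Whether level bears on this difference was not tested.

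**Figure D1:**
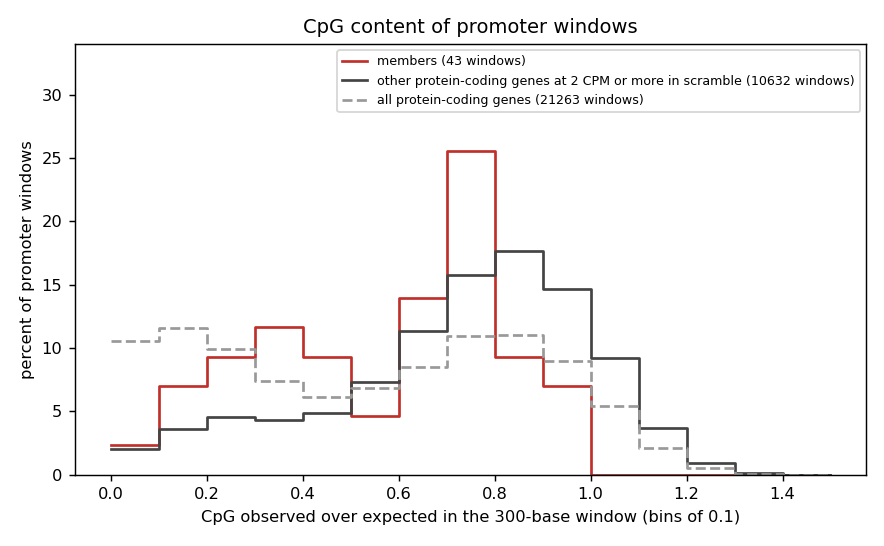
Share of 300-base promoter windows (vertical axis, percent) in each bin of observed over expected CpG (horizontal axis) for the silenced genes, for other protein-coding genes at 2 CPM or more in scramble cells and for all protein-coding genes. The 43 windows of the silenced genes have a median of 0.638 and spread over both the CpG-poor and the CpG-rich end.

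Exact motifs were searched on both strands of the same windows. TATAAA, a form of the TATA box, was in 6 of the 43 windows (14.0%), in 6.57% of the windows of other expressed genes and in 12.6% of all. It is present in the Ckb window and in the downstream Rai14 window printed above. A loose form of the NF-kB site (GGG and CC with 5 bases of any kind between them) was in 27 windows (62.8%), in 67.9% of those of other expressed genes and in 57.0% of all. TCAGGTT, a form of the MEF3 site bound by Sine oculis homeobox proteins, was in 0 of the 43 windows, in 3.17% of those of other expressed genes and in 3.85% of all. Overlap between matches of different motifs was not examined, a match is only a match of letters, and windows of one gene can share sequence.

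Summed over the 48 genes, the scramble libraries held 255.6, 255.0 and 252.3 CPM. The knockdown libraries held 1.46, 1.11 and 1.504 CPM and the add-back libraries 1.35, 1.26 and 1.56 CPM. In raw counts this was 16259, 19674 and 18660 against 119, 89 and 115 in the knockdown libraries and 102, 90 and 108 in the add-back libraries. The 3 scramble libraries were alike, the 6 hairpin libraries were alike, and the groups lay far apart, which the choice of the genes fixed. In bulk libraries, fewer cells that express a gene and less of its RNA in each cell cannot be told apart.

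**Figure D2:**
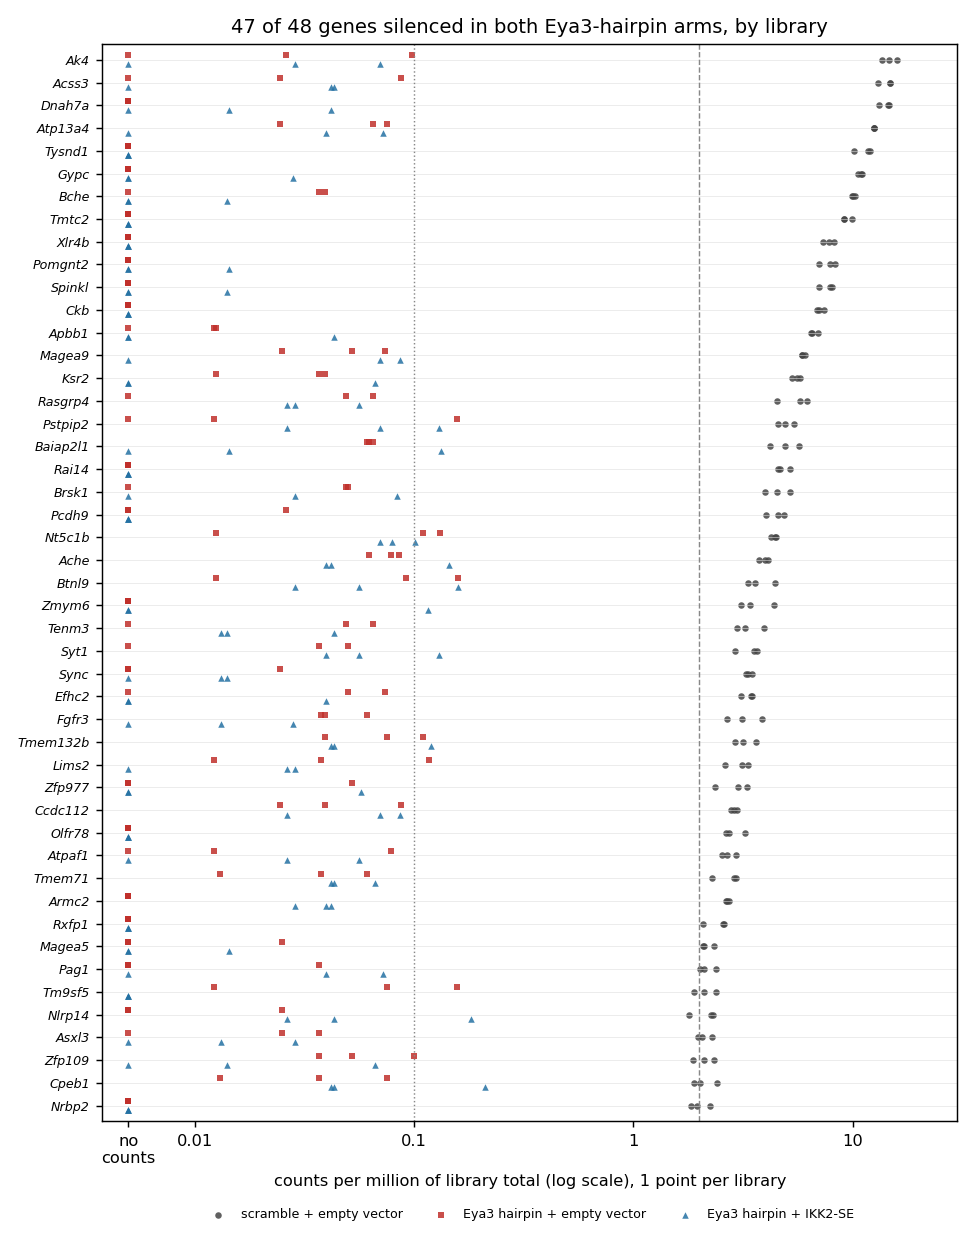
Level of 47 of the 48 silenced genes (rows, 1 each) in each library (points, CPM on a log axis, with libraries that held no counts drawn at the left edge), coloured by group. Scramble means run from 2.01 to 14.7 CPM, and no knockdown or add-back mean exceeds 0.0990 CPM.

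In the scramble cells the genes had means from 2.01 to 14.7 CPM and a median of 3.85 CPM. Per kilobase of exon, their median level was 0.946 CPM per kb, beside 8.68 CPM per kb over 10144 protein-coding genes at 2 CPM or more. Their gene bodies had a median of 35.6 kb, beside 24.9 kb. The coefficient of variation over the 3 scramble libraries had a median of 8.17%, beside 6.78% in 2813 other genes in the same range.

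The depth of silencing differed among the genes. No count was found in any of the 6 hairpin libraries for 9 genes, from 1 to 10 counts were found for 13, and more than 10 for 26. A count was present in every hairpin library for 7 genes, and the highest count in any one of them was 16, for Cpeb1. Taking both arms together, folds against scramble ran from 29.9 to 3488 with a median of 158, where a gene with no counts was set at 3 counts over the 6 hairpin libraries. Intervals on folds are exact 95% intervals that cover counting error only.

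The genes of energy, lipid and transmitter metabolism and of organelles numbered 8 and summed to between 64.8 and 71.1 CPM in the scramble libraries. Ak4, a mitochondrial adenylate kinase (chromosome 4, 101419277 to 101466995, plus strand, GRCm38), had the highest mean CPM of the set. It gave 1013, 1127 and 1004 counts in the scramble libraries (14.7 ± 1.18 CPM, SD, n = 3), 8, 0 and 2 in the knockdown libraries and 0, 5 and 2 in the add-back libraries, a 391-fold lower level over both arms (244 to 672). Acss3, a mitochondrial short-chain acyl-CoA synthetase, gave 940, 1140 and 964 counts in scramble, 2, 7 and 0 in knockdown and 0, 3 and 3 in add-back cells. The knockdown and add-back libraries overlapped for both genes, and single hairpin libraries were at 0.

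Both cholinesterases of the mouse were among the 48. Bche, butyrylcholinesterase (chromosome 3, 73635808 to 73708415, minus strand), gave 648, 769 and 742 counts in scramble, 3, 0 and 3 in knockdown and 0, 1 and 0 in add-back cells. Ache, acetylcholinesterase (chromosome 5, 137287519 to 137294466, plus strand), gave 252, 316 and 276 counts, then 7, 5 and 6 and then 3, 3 and 10. Bche was lower by 652-fold over both arms (316 to 1625) and Ache by 52.5-fold (37.3 to 76.3), so counts of Ache persisted in every hairpin library while those of Bche were scattered.

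Tysnd1, a protease that processes enzymes imported into peroxisomes (chromosome 10, 61695514 to 61702773, plus strand), gave 748, 928 and 751 counts in scramble and 0 in all 6 hairpin libraries, at least 1711-fold lower. Ckb, the brain-type creatine kinase (chromosome 12, 111669361 to 111672338, minus strand), gave 472, 540 and 509 counts and then 0 in all 6, at least 1072-fold lower. These are the promoters printed above with 18 and 22 CpG. Nt5c1b, a cytosolic nucleotidase, kept counts in every hairpin library (9, 1 and 10 in knockdown and 6, 5 and 7 in add-back, from 284, 328 and 326 in scramble). Atpaf1, an assembly factor of the mitochondrial ATP synthase, went from 162, 206 and 217 counts to 1, 0 and 6 in knockdown and 2, 4 and 0 in add-back libraries.

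Another 8 genes encode proteins of glycosylation, transport or other membrane functions, with 51.7 to 53.2 CPM between them in scramble. Tmtc2, an endoplasmic reticulum protein of a family linked to O-mannosylation of cadherins (chromosome 10, 105187663 to 105574451, minus strand), gave 633, 705 and 674 counts and then 0 in all 6 hairpin libraries, at least 1419-fold lower. Pomgnt2, which extends O-mannose glycans on dystroglycan (chromosome 9, 121981606 to 121997110, minus strand), gave 526, 542 and 581 counts and a single count in add-back replicate 3. That count makes its fold 3488 with an interval from 625 to 137859. Both of these genes of protein O-mannose biology were without detectable messenger RNA in the knockdown libraries.

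Atp13a4, a cation-transporting P-type ATPase, gave 791, 966 and 927 counts in scramble, 2, 6 and 5 in knockdown and 3, 0 and 5 in add-back cells. Its scramble levels of 12.44, 12.52 and 12.53 CPM were the steadiest of the set. Gypc, glycophorin C of the membrane skeleton, gave 701, 814 and 809 counts and then only 2 counts, both in add-back replicate 2. Of the erythroid markers, Hbb-bs and Hbb-bt were at 0 in every library and the summed level was 0.928 to 1.08 CPM in scramble, 0.213 to 0.527 in knockdown and 0.294 to 0.418 in add-back cells.

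Btnl9, a butyrophilin-like membrane protein, lay nearest the knockdown limit, with 211, 341 and 264 counts in scramble, 13, 1 and 7 in knockdown and 12, 4 and 2 in add-back cells. Tmem132b gave 185, 278 and 233 counts, then 9, 6 and 3 and then 9, 3 and 3. Tmem71 gave 187, 177 and 212 counts, then 5, 3 and 1 and then 5, 3 and 3. Both kept a count in every hairpin library. Tm9sf5, which the annotation used here gives no position, gave 152, 162 and 140 counts and is taken up with the comparison between the arms.

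The 9 receptors, kinases and signalling adaptors summed to 34.4 to 35.3 CPM in scramble. Fgfr3, a receptor tyrosine kinase for fibroblast growth factors (chromosome 5, 33721674 to 33737068, plus strand), gave 170, 242 and 285 counts in scramble, 5, 3 and 3 in knockdown and 1, 2 and 0 in add-back cells. Ksr2, a scaffold of the Ras and MAP kinase pathway, gave 354, 443 and 389 counts, then 3, 1 and 3 and then 5, 0 and 0. Rasgrp4, an exchange factor that loads Ras with GTP, gave 392, 442 and 335 counts, then 4, 0 and 5 and then 2, 4 and 2. Genes of receptor, exchange factor and scaffold in the Ras pathway were among the 48, and each had some counts left in both arms.

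Rxfp1, a relaxin receptor, went from 132, 200 and 189 counts to 0 in all 6 hairpin libraries, at least 367-fold lower. Olfr78, an odorant receptor also found outside the nose, went from 168, 211 and 238 counts to 0, at least 435-fold lower. Nrbp2, a pseudokinase and the gene nearest the scramble limit, went from 124, 142 and 165 counts to 0, at least 304-fold lower. In this group 3 genes therefore had no hairpin counts, and their bounds differ only by their scramble counts.

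Apbb1, an adaptor that binds the amyloid precursor protein, gave 443, 502 and 479 counts in scramble, 1, 1 and 0 in knockdown and 0, 0 and 3 in add-back cells. Brsk1, a kinase of neuronal polarity, gave 254, 350 and 381 counts, then 4, 4 and 0 and then 0, 6 and 2. Pag1, a membrane adaptor that recruits the kinase Csk, gave 151, 162 and 149 counts, then 3, 0 and 0 and then 3, 0 and 5. In each case the hairpin counts were spread over some libraries of both arms.

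Among genes of synapses and cell contacts, Pcdh9, a protocadherin, gave 291, 373 and 298 counts and then only 2, in knockdown replicate 3. Syt1, the calcium sensor of synaptic vesicles, gave 232, 274 and 215 counts, then 3, 4 and 0 and then 3, 4 and 9, and Tenm3, a teneurin adhesion protein, gave 188, 304 and 239 counts, then 4, 0 and 5 and then 1, 1 and 3. The neural marker list, which holds Syt1, summed to 3.68 to 4.62 CPM in scramble, 0.588 to 0.751 in knockdown and 0.562 to 1.30 in add-back cells, and Snap25 was at 0 in every library. Without Syt1 the neural sums overlapped, at 0.674 to 0.975 CPM in scramble, 0.588 to 0.701 in knockdown and 0.432 to 1.26 in add-back cells.

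The 5 genes that act at adhesion sites or the cytoskeleton summed to 20.3 to 22.4 CPM in scramble. Rai14, an actin-binding ankyrin-repeat protein (chromosome 15, 10568969 to 10714624, minus strand), gave 290, 359 and 384 counts in scramble and 0 in all 6 hairpin libraries, at least 728-fold lower. Sync, the intermediate filament protein syncoilin, gave 208, 258 and 257 counts, then 2, 0 and 0 and then 1, 1 and 0. Lims2, a LIM protein of focal adhesions, gave 212, 241 and 194 counts, then 1, 3 and 9 and then 2, 0 and 2. Sync and Rai14 were thus nearly free of counts, unlike Lims2.

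Baiap2l1, a membrane-bending regulator of actin, gave 268, 380 and 421 counts in scramble, 5, 5 and 5 in knockdown and 10, 0 and 1 in add-back cells. Pstpip2, an F-BAR protein, gave 312, 352 and 400 counts, then 1, 0 and 12 and then 2, 5 and 9. For Pstpip2 most of the remaining counts came from replicate 3 of each arm. Whether libraries with the same number are pairs is not settled, and no cause was tested.

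The 3 genes of cilia and flagella summed to 19.4 to 20.7 CPM in scramble. Dnah7a, an axonemal dynein heavy chain (chromosome 1, 53397006 to 53706784, minus strand), gave 842, 1134 and 1074 counts in scramble, 0 in the knockdown libraries and 0, 3 and 1 in the add-back libraries. Its copies Dnah7b and Dnah7c held 6 and 4 counts in the scramble libraries together, so reads that the 3 genes share are assigned with uncertainty. Efhc2, an EF-hand protein of the axoneme, gave 218, 239 and 256 counts, then 6, 4 and 0 and then 3, 0 and 0. Armc2, needed for sperm flagella, gave 174, 205 and 198 counts in scramble.

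Germline and X-linked family genes were represented by Magea9, Magea5, Xlr4b and Nlrp14. Magea9 gave 385, 453 and 432 counts in scramble, 6, 2 and 4 in knockdown and 0, 5 and 6 in add-back cells. Magea5 gave 132, 179 and 156 counts, then 0, 2 and 0 and then 0, 0 and 1. Nlrp14, an oocyte-expressed NLR protein, gave 144, 178 and 133 counts, then 0, 2 and 0 and then 2, 13 and 3, with add-back replicate 2 highest. Xlr4b (chromosome X, 73214333 to 73222453, plus strand) gave 522, 566 and 575 counts and then 0 in all 6 hairpin libraries, at least 1173-fold lower.

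Other genes of these families were not all silenced. Magea10 stood at 36.6 CPM in scramble, 39.7 in knockdown and 38.1 in add-back cells, and Xlr3a at 36.0, 46.9 and 47.9 CPM. Xlr3b stood at 5.49, 0.122 and 0.151 CPM, and Magea8 at 2.87, 0.740 and 0.403 CPM. Xlr4a and Xlr4c, close copies of Xlr4b, held 3 and 11 counts in the scramble libraries together. Members of these families are alike in sequence, so their counts are uncertain where reads map to several of them.

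The 5 genes that bind DNA or RNA or act on chromatin summed to 12.3 to 13.5 CPM in scramble. Asxl3, a relative of the Polycomb-linked Asxl1, gave 125, 177 and 152 counts in scramble, 3, 2 and 0 in knockdown and 1, 0 and 2 in add-back cells. Zmym6, a zinc finger protein, gave 196, 262 and 324 counts, then 0 in knockdown and then 0, 0 and 8, all remaining counts being in 1 library. Zfp977 gave 209, 231 and 175 counts, then 0, 0 and 4 in each arm, and Zfp109 gave 133, 145 and 172 counts, then 3, 8 and 4 and then 5, 1 and 0. Both are zinc finger genes with many close relatives, so their reads are uncertain in the same way.

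Cpeb1, which controls translation through cytoplasmic polyadenylation, was the least deeply silenced. It gave 120, 155 and 177 counts in scramble, 3, 6 and 1 in knockdown and 16, 3 and 3 in add-back cells, a 29.9-fold lower level (20.9 to 44.2). Spinkl, a Kazal-type protease inhibitor homolog, gave 447, 605 and 595 counts and then a single count in add-back replicate 2. Ccdc112, a coiled-coil protein, gave 188, 223 and 207 counts, then 2, 7 and 3 and then 2, 5 and 6, with a count in every library.

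The limits of the choice fell within a continuous range of genes. Just inside the scramble minimum were Nrbp2 at 2.01 CPM, Cpeb1 at 2.10 and Zfp109 at 2.10, and just outside were Slc7a14 and Mettl7a1 at 2.00 and Mpped2 at 1.90, each with both arms under 0.1 CPM. At the knockdown limit, Btnl9, Nt5c1b and Tm9sf5 were inside with 0.0878, 0.0846 and 0.0814 CPM in knockdown cells, and Ptpru, Paqr4 and Mrgprx2 outside with 0.106, 0.123 and 0.144. At the add-back limit, Cpeb1, Nlrp14 and Nt5c1b were inside with 0.0990, 0.0840 and 0.0835 CPM in add-back cells, and Nlrp4e, Lvrn and Pkd1l1 outside with 0.110, 0.119 and 0.129. In scramble cells Ptpru and Nlrp4e stood at 18.7 and 20.4 CPM, so genes excluded by an arm limit could be well expressed there.

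With the groups exchanged, 18 genes were under 0.1 CPM in scramble and at 2 CPM or more in both arms. When only the knockdown limit was required, 60 genes qualified, of which 12 stood at 0.1 CPM or more in add-back cells. All 48 passed edgeR's filter on low counts, which they could do through the scramble libraries alone. All 48 were also called lower in knockdown and in add-back cells against scramble, beside 57.5% of tested genes called in the first comparison (29.9% lower) and 55.8% in the second (28.7% lower). The comparisons share the scramble libraries and were used by the choice, so nothing is read from these counts.

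Add-back and knockdown cells were compared within the limit of 0.1 CPM that the choice set on both. Genes whose level IKK2-SE brought above that limit were left out beforehand, so the comparison does not ask whether it restored them. Of the 48, 2 passed the threshold (edgeR quasi-likelihood test, adjusted p under 0.05), beside 10.4% of all tested genes (5.61% higher and 4.82% lower), and 5 had an unadjusted p under 0.05. The 48 were tested because of their scramble counts, and none passed the filter on low counts when only these groups were fitted. Nothing is therefore read from the number of calls. Mean levels were higher in add-back cells for 18 genes, lower for 21 and equal for 9.

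Both calls rest on few counts, in genes that the scramble libraries carried past the filter. Armc2 was higher in add-back cells, with 3, 3 and 2 counts against 0, 0 and 0 in the knockdown libraries (edgeR adjusted p = 0.0183). Tm9sf5 was lower, with 0, 0 and 0 counts against 1, 6 and 12 (edgeR adjusted p = 0.0206). Nlrp14, with 2, 13 and 3 counts against 0, 2 and 0, did not pass (edgeR adjusted p = 0.0674). The Armc2 call was lost without knockdown replicate 1 (0.0512) or 2 (0.0531). The Tm9sf5 call was lost without any one add-back replicate (from 0.0528 to 0.0529) and without knockdown replicate 2 (0.0509) or 3 (0.0648).

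Positions were known for 46 of the 48 genes, all protein coding. Chromosome 7 held 8 of them, which was 0.828% of its 966 tested coding genes. Chromosome 18 held 6, which was 1.78% of its 338. Chromosomes 5 and 10 held 5 each and chromosome 4 held 4, and chromosomes 3, 15 and X held 3 each. The genes thus lay on many chromosomes, with some near each other. Chromosomes 7 and 18 held more than their share of tested coding genes, and so did chromosomes 3, 4, 5, 10, 12, 15 and X. Chromosome 10 stood at 0.828% of its tested coding genes, as chromosome 7 did. Chromosomes 1, 6, 8, 9, 11, 14 and 16 held 1 each, less than their share. A cause of this was not tested.

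To ask whether silencing covered neighbouring genes, the nearest tested coding gene on each side was examined within 500 kb. There were 75 such genes beside 42 of the silenced genes, at a median distance of 30.2 kb. Of the 75, 61 stood at 2 CPM or more in both arms, and for 21 silenced genes this held on both sides. Flanking genes had to pass the filter on low counts, and no such share over all tested coding genes was taken. These counts therefore only describe the 75. In knockdown against scramble cells 21 flanking genes rose, 30 fell and 24 were not called, with a median log2 fold change of -0.06, beside -0.00 over all tested genes. In add-back against scramble cells 20 rose, 32 fell and 23 were not called. The share that fell, 40.0% in knockdown cells, stood beside 29.9% of all tested genes, and 17.3% were more than 2-fold lower, beside 10.2% of all. In add-back cells 42.7% fell, beside 28.7%. The 75 were not matched to all tested genes on level, so nothing is read from these shares. With a filter of 1 CPM in 3 libraries, 21 of 68 rose and 27 fell in knockdown cells, while 8430 of all 12361 genes were called.

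**Figure D3:**
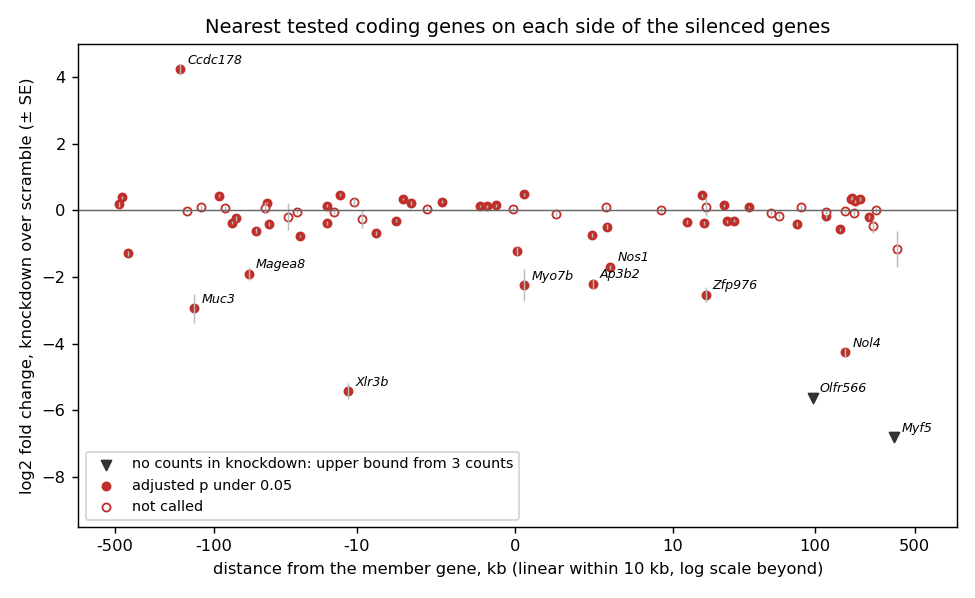
Log2 fold change in knockdown over scramble cells (vertical axis, with SE) of the nearest tested coding gene on each side of each silenced gene, by distance (horizontal axis, kb). Most points lie near 0, and the named genes lie far from it; triangles mark Myf5 and Olfr566, which had no counts in knockdown cells.

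Tysnd1, without a count in any hairpin library, lay between expressed genes. Sar1a, a GTPase of vesicle budding 2.22 kb away, stood at 130 CPM in scramble, 138 in knockdown and 143 in add-back cells. Aifm2, an anti-ferroptotic oxidoreductase 12.5 kb away, stood at 37.8, 28.6 and 30.2 CPM. Smpd1, acid sphingomyelinase, ends 0.094 kb from Apbb1 and stood at 39.0, 38.7 and 39.6 CPM. These 3 genes were chosen after their values were seen, for their short distance. Expressed genes therefore lay close to silenced ones.

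Among the flanking genes named by rule, Nos1, a nitric oxide synthase 6.03 kb from Ksr2, fell from 81.5 ± 1.41 to 24.5 ± 2.01 CPM in knockdown cells, a log2 fold change of -1.69 ± 0.06 (edgeR adjusted p = 3.46e-13), and stood at 29.6 CPM in add-back cells. On the other side of Ksr2, Rfc5, a subunit of the replication clamp loader, fell from 141 to 80.2 CPM (-0.77, edgeR adjusted p = 4.45e-11). Spred3, a Ras pathway inhibitor next to Rasgrp4, fell from 35.7 to 20.7 CPM (-0.74, edgeR adjusted p = 2.29e-08). Both sides of Ksr2 were therefore lower and still well expressed.

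Flanking genes also rose. Mark3, a microtubule-affinity kinase 13.1 kb from Ckb, rose from 64.0 to 86.2 CPM in knockdown cells (0.48, edgeR adjusted p = 3.26e-08). Bin1, a membrane-curvature protein next to Gypc, rose from 71.7 to 93.8 CPM (0.44, edgeR adjusted p = 3.23e-07). Atp5a1, a subunit of ATP synthase next to Pstpip2, rose by 0.35 on the log2 scale (edgeR adjusted p = 9.10e-08). Silenced Ckb and Gypc thus had a neighbour that rose.

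Only 2 flanking genes were under 0.1 CPM in both arms. Myf5, a myogenic transcription factor beside Acss3, stood at 1.41 CPM in scramble and held no count in either arm, at least 113-fold lower in knockdown and at least 102-fold lower in add-back cells, set against 3 counts in each group. Olfr566, beside Olfr78, stood at 0.621 CPM in scramble and held no count in either arm, at least 49.1-fold and 44.6-fold lower. Any flanking gene this low in both arms had to miss the choice by its scramble level or its name. Both missed it by their scramble level. Muscle markers summed to 9.55 to 11.1 CPM in scramble, 7.66 to 8.32 in knockdown and 6.98 to 9.28 in add-back cells, and Myog was at 0 in all libraries.

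Next to Xlr4b, Xlr3b fell by 5.43 on the log2 scale in knockdown cells (edgeR adjusted p = 1.61e-11). The neighbours of Asxl3 moved in opposite directions, an example picked after the values were seen. Nol4, a nucleolar protein gene 163 kb away, fell from 11.0 to 0.553 CPM (-4.26, edgeR adjusted p = 4.68e-13). Ccdc178, 173 kb away on the other side, rose from 0.280 to 5.19 CPM (4.23, edgeR adjusted p = 3.28e-12), the only flanking gene more than 2-fold higher. A stretch of chromosome 18 therefore held a silenced gene, a gene that fell and a gene that rose.

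Some silenced genes lay in the same neighbourhood. On chromosome 10, Tmtc2 and Acss3 were 1.36 Mb apart and Acss3 and Syt1 1.37 Mb apart. Between Acss3 and Syt1 lay 5 tested coding genes. Myf5 was without counts in both arms, Ptprq, a receptor phosphatase, fell from 1.11 to 0.159 CPM in knockdown cells, Otogl fell from 0.525 to 0.147 CPM, and Ppp1r12a, a myosin phosphatase subunit, fell from 225 to 128 CPM (-0.77, edgeR adjusted p = 7.75e-10). Pawr, an apoptosis regulator, stood at 53.2, 53.9 and 69.1 CPM in scramble, knockdown and add-back cells. Expressed genes thus lay between silenced ones.

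Lims2 and Gypc on chromosome 18 were 0.570 Mb apart with 5 tested coding genes between them, and Apbb1 and Nlrp14 on chromosome 7 were 1.59 Mb apart with 9. In both stretches 0 of the genes between were under 0.1 CPM in both arms. Of all 8 stretches between neighbouring silenced genes, up to 4.90 Mb long, these 2 held none, 5 held 1 such gene and 1, from Olfr78 to Apbb1, held 2, which were Olfr566 and Olfr571. The one between Tmtc2 and Acss3 was Ppfia2. Between Spinkl and Ccdc112, 2.11 Mb apart, Trim36 stood at 1.70 CPM in scramble, held no count in knockdown cells and stood at 0.0187 CPM in add-back cells. Any gene this low in both arms inside a stretch had to miss the choice by its scramble level or its name. The stretches held from 3 to 103 tested coding genes, and no such share over all tested coding genes was taken. The low numbers are therefore in part fixed by the choice and only describe these 8 stretches.

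Of the silenced genes, 5 overlap another tested coding gene. The levels of those partners in scramble, knockdown and add-back cells were 226.7, 197.7 and 209.5 CPM for Rbbp4 (with Sync), 80.4, 86.4 and 80.5 CPM for Bri3 (with Baiap2l1) and 7.08, 8.47 and 7.54 CPM for Fam98c (with Rasgrp4). Tmem35b, on the same strand as Zmym6, stood at 3.87, 3.11 and 3.29 CPM. Ppfia2, opposite Acss3, stood at 0.215 CPM in scramble and held no count in knockdown cells. How the counting treated strand is not known here, and reads in the overlaps cannot be assigned with certainty. The other partners were present in all groups.

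To place the genes among their families, tested genes with the same symbol stem were examined. There were 59 such relatives for 25 of the 48 genes, and 49 of them stood at 2 CPM or more in all 3 groups. In knockdown against scramble cells 23 rose, 23 fell and 13 were not called, with a median log2 fold change of -0.01. That was 39.0% in each direction, beside 27.7% of all tested genes that rose and 29.9% that fell. In add-back against scramble cells 24 rose and 23 fell. For 24 of the 25 genes a relative stood at 2 CPM or more in both arms. A shared stem is a match of names, and Rai1, for example, shares only the name with Rai14.

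**Figure D4:**
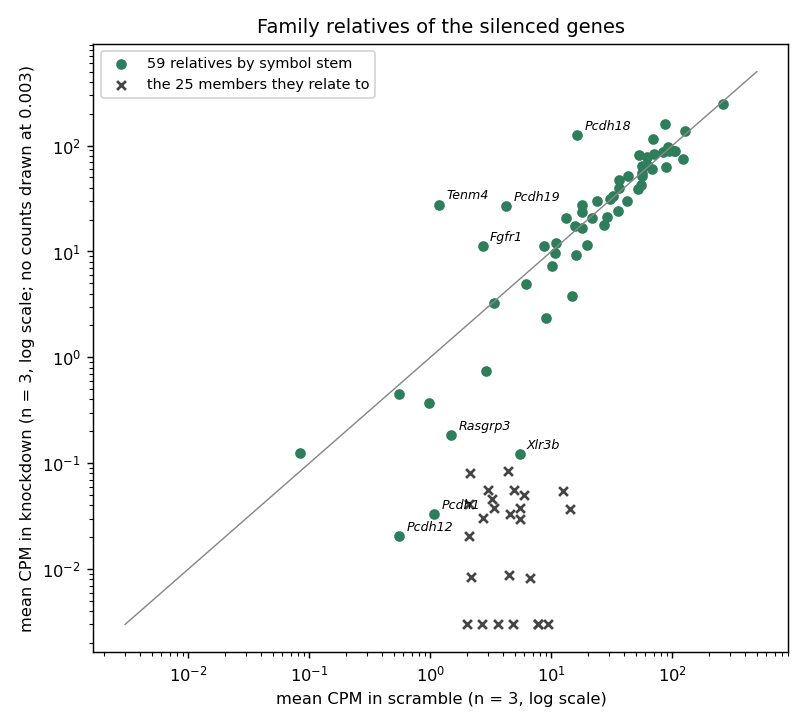
Mean level in knockdown cells against mean level in scramble cells (CPM, both axes logarithmic, n = 3 libraries each) for 59 relatives and the 25 silenced genes they relate to, with the line of equal level. Most relatives lie near the line, Pcdh18, Pcdh19, Tenm4 and Fgfr1 lie above it, and Xlr3b, Pcdh1 and Pcdh12 lie as low as or just above the silenced genes.

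Fgfr1, a receptor of the same family as Fgfr3, moved the other way. It rose from 2.72 ± 0.212 CPM in scramble to 11.2 ± 0.187 CPM in knockdown cells (2.09 ± 0.08, edgeR adjusted p = 3.10e-12) and stood at 16.6 ± 0.794 CPM in add-back cells. Fgfr2 stood at 17.96, 27.8 and 26.4 CPM. Fgfr1 and Fgfr3 therefore differed in opposite directions, and the 3 groups did not overlap for Fgfr1.

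Relatives of the cell-contact genes are named here after their values were seen. Tenm4, a relative of Tenm3, rose from 1.18 to 27.7 CPM in knockdown cells (4.61, edgeR adjusted p = 2.63e-13) and stood at 19.8 CPM in add-back cells. Beside Pcdh9, Pcdh18 rose from 16.3 to 125 CPM (2.98, edgeR adjusted p = 2.03e-17), Pcdh19 from 4.26 to 26.9 CPM and Pcdh17 from 87.1 to 160 CPM. Pcdh10 fell from 19.6 to 11.5 CPM (-0.72). Pcdh1 and Pcdh12 fell from 1.08 to 0.0330 CPM and from 0.551 to 0.0204 CPM, and so were as low as the 48 in knockdown cells from a scramble level under the limit. Relatives of the silenced adhesion genes thus moved in both directions.

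Relatives of the kinases and scaffolds varied. Nrbp1 rose from 69.5 to 115 CPM and stood at 114 CPM in add-back cells. Ksr1 fell from 15.9 to 9.36 CPM (-0.72) and Brsk2 from 14.9 to 3.80 CPM (-1.92). Tmtc3, beside Tmtc2, fell from 123 to 75.2 CPM (-0.66). Relatives of the silenced kinases were thus found in both directions.

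Some highly counted relatives did not pass, or passed narrowly. Asxl2 stood at 93.4, 89.9 and 89.4 CPM in scramble, knockdown and add-back cells and was not called in knockdown cells (edgeR adjusted p = 0.885). Tm9sf3 stood at 263, 249 and 255 CPM (edgeR adjusted p = 0.489). Zmym2 stood at 92.5, 96.3 and 95.3 CPM (edgeR adjusted p = 0.0644), and passed without knockdown replicate 3 (0.0245), without scramble replicate 1 (0.0444) and with the replicate number as a block (0.0122). Lims1, beside Lims2, rose from 83.3 to 88.0 CPM (0.13, edgeR adjusted p = 0.0117), a call lost with library totals as the scaling (0.111). Among the relatives with the highest levels, Asxl1 rose from 126 to 138 CPM (log2 0.17, edgeR adjusted p = 0.000536). Atp13a3 and Atp13a1, ATPases beside Atp13a4, fell from 105 to 89.6 CPM (log2 -0.18, edgeR adjusted p = 0.000566) and fell from 104 to 88.2 CPM (log2 -0.18, edgeR adjusted p = 0.00186).

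Genes of the silencing machinery were examined as a list of 80 tested genes. In knockdown against scramble cells 35 rose, 25 fell and 20 were not called, so 60 of 80 were called (75.0%), beside 57.5% of all tested genes. In add-back against scramble cells 33 rose, 21 fell and 26 were not called (67.5% called, beside 55.8%). Between the arms 3 rose in add-back cells, 4 fell and 73 were not called (8.75% called, beside 10.4%). The list was not matched to all tested genes on level. With a filter of 1 CPM in 3 libraries, 35 of 77 rose and 22 fell in knockdown cells, while 8430 of all 12361 genes were called. No mark was measured in these cells, and whether any gene of the list bears on the 48 was not tested.

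**Figure D5:**
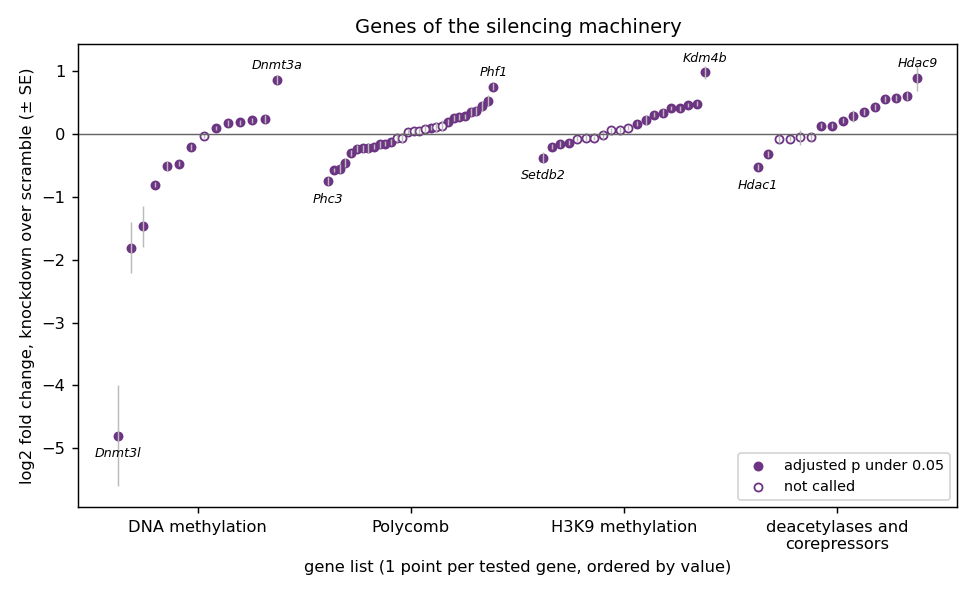
Log2 fold change in knockdown over scramble cells (vertical axis, with SE) of each tested gene in 4 lists of silencing machinery (horizontal axis). Values lie on both sides of 0 in every list, with medians of -0.12, 0.04, 0.08 and 0.18.

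Of 14 tested genes of DNA methylation, 6 rose and 7 fell in knockdown cells, with a median log2 fold change of -0.12. Dnmt3a, a methyltransferase that sets new methylation, rose from 28.9 to 50.9 CPM and stood at 51.5 CPM in add-back cells (0.87 in knockdown, edgeR adjusted p = 2.47e-08). Tdg, a glycosylase that takes part in removing methylation, fell from 55.6 to 30.9 CPM and stood at 32.8 CPM in add-back cells (-0.80). Mbd3 and Mbd4, methyl-CpG-binding family genes, fell by 0.47 and 0.51 on the log2 scale. Dnmt3l, a cofactor of the methyltransferases, fell from 0.528 to 0.0167 CPM, close to no counts, and stood at 0.207 CPM in add-back cells. Dnmt1, which copies methylation at replication, was not called (edgeR adjusted p = 0.590).

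Of 30 tested Polycomb genes, 10 rose (33.3%) and 12 fell (40.0%) in knockdown cells, beside 27.7% and 29.9% of all, with a median of 0.04. Phc2, a subunit of Polycomb repressive complex 1, fell from 250 to 163 CPM and stood at 185 CPM in add-back cells. Phc3 fell by 0.74 on the log2 scale. Phf1, an accessory subunit of the complex that methylates lysine 27, rose from 21.7 to 35.5 CPM (0.76), and Cbx6 rose by 0.29. Changes in the Polycomb list ran both ways.

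Of 20 tested genes of H3 lysine 9 methylation, 9 rose and 4 fell, with a median of 0.08. The methyltransferase genes Ehmt2 and Setdb1 rose from 184 to 249 CPM (0.49) and from 82.7 to 110 CPM (0.47). The demethylase genes Kdm4a and Kdm3b also rose, each by 0.42. These 4 genes were named for their small adjusted p, and 7 of the 20 were not called.

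Of 16 tested deacetylase and corepressor genes, 10 rose (62.5%) and 2 fell (12.5%), beside 27.7% and 29.9% of all, with a median of 0.18. Hdac3 rose from 72.5 to 105 CPM (0.58). Rest, a repressor of neuronal genes, rose from 117 to 168 CPM (0.57) and stood at 153 CPM in add-back cells, and its cofactor gene Rcor1 rose from 68.8 to 101 CPM (0.61). Hdac1 fell from 124 to 83.6 CPM (-0.53). In add-back against scramble cells 8 of these 16 rose and 3 fell.

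Markers of other cell types were read beside the 48 genes. Endothelial markers summed to 4.83 to 5.52 CPM in scramble, 0.615 to 1.05 in knockdown and 1.21 to 1.56 in add-back cells, and Cdh5 gave most of the scramble sum, with 4.43 CPM against 0.222 CPM in knockdown cells. Macrophage markers summed to 52.9 to 56.2, 26.98 to 30.7 and 39.2 to 41.9 CPM, with C1qa at 0. Lymphocyte markers summed to 0.299 to 0.406, 0.123 to 0.250 and 0.210 to 0.278 CPM. Fibroblast markers summed to 52.9 to 55.1, 62.9 to 68.0 and 68.9 to 71.7 CPM, with Thy1 at 0, and the 10 genes that track RNA quality to 9840 to 10544, 7921 to 11915 and 8647 to 11960 CPM. Epithelial markers summed to 641 to 698, 1236 to 1365 and 1041 to 1114 CPM, and mesenchymal markers to 4207 to 4599, 5874 to 6428 and 4834 to 5278 CPM. The summed endothelial, macrophage, lymphocyte, erythroid and muscle levels were lower in every hairpin library than in any scramble library, and the epithelial, mesenchymal and fibroblast sums were higher. Genes within a list could go opposite ways. In knockdown cells Pdgfra fell from 48.7 to 39.1 CPM while Col3a1 rose from 0 to 13.2 CPM. Of 7 tested fibroblast markers 4 were called higher and 2 lower. It was 0 and 3 of 6 macrophage markers and 1 and 1 of 4 endothelial markers. The shares over all tested genes were 27.7% and 29.9%. The part of these markers in the result was not tested.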

How the data were processed

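The authors deposited a table of raw counts by gene symbol for the 9 libraries. FastQC, MultiQC, STAR and the mm10 build are named, per the submitters' processing notes. Which counter, gene models and strand option made the counts is not given in the sources used here. Columns of the hairpin libraries are named KD3 where titles say KD2, and were matched on arm and replicate number. CPM is count over column total. Counts of 16766 genes that passed filterByExpr (minimum count 10, total 15) were scaled with TMM and tested in edgeR 4.0.16 (R 4.3.3) by robust quasi-likelihood fits over all 9 libraries, group as the only term, with Benjamini-Hochberg adjustment over all tested genes and calls at 0.05. The common biological coefficient of variation was 5.26%, with 6 residual degrees of freedom. Replicates differed by more than sampling noise (chi-square per degree of freedom 3.85 to 20.7), and each was counted as a replicate of its own; this does not tell separate cultures from repeat libraries of one. Positions are from GENCODE M21 (GRCm38/mm10). The fit was tested on simulated data. The members and lists were chosen with earlier results of these data known, and role groups were written once the members were known. By rule, named genes were the 20 members highest in scramble, members with 3 or more counts in a hairpin library or a call between the arms, the genes beside each limit, 8 flanking genes of those 20 by adjusted p and any under 0.1 CPM in both arms, the 8 highest relatives, and 4 genes per machinery list by adjusted p. Others were chosen after their values were seen. Alternatives were DESeq2 1.42.0, other scalings, filters and limits, a replicate block and leaving out each library. The values of 1 member and of some neighbouring genes are not reported here.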

Additional observations from a re-analysis of the deposited data

How the results depend on the processing

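The number of silenced genes was set by the limits: it was 78 with a scramble minimum of 1 CPM and 16 with 5 CPM. It was 79 with an arm limit of 0.2 CPM and 32 with 0.05 CPM. When every library, and not only the group mean, had to meet the limits, it was 33. It was 46 to 50 when a library was left out. The count of these genes called between add-back and knockdown cells was 4 with no filter on low counts and 0 to 2 when a library was left out, against 2. When only those groups were fitted, none of the 48 passed the filter on low counts, so that alternative gave no value. Deviations of libraries with the same replicate number had correlations from -0.011 to 0.123, and those with different numbers from -0.081 to 0.046. The highest was between replicate 1 of knockdown and of add-back cells. Whether the numbers pair the libraries is therefore not settled. With the replicate number as a block, genes called between the arms numbered 2678 against 1749. Of 263 alternatives for 17 summary results, 253 stayed within 1.5 times of the value or kept their call. Of 716 for 48 single genes, 705 kept their call and direction, 8 lost the call, 3 gained it and 0 reversed. The cause of these shifts was not tested.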
